A study of Mus musculus with 20 samples.

Results

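The subject is the dose difference of a designed cytokine: whether the gap in gene expression between cells given 21h10 and cells given native murine IL-21 (mIL-21) was the same at 100 pM and at 1 nM. It was measured by RNA-sequencing in 8 cytokine-treated libraries of the 20 in the series, 2 for each of 4 groups. All of the cells were CD8+ T cells taken by negative selection from the spleens of wild-type C57BL/6J mice aged 6 to 8 weeks. They had all been activated for 48 hours with anti-CD3 and anti-CD28 and rested overnight, and the treated groups were then cultured for 24 hours with one of the cytokines at one of the doses. Another 2 libraries of the same experiment came from cells without cytokine, and a second experiment of 10 libraries covered 10 nM and 100 nM. The duplicates are numbered as such in the labels, which do not say whether they share a mouse or culture, although the methods of the study state separate tissue preparations for RNA-sequencing. The p-values below therefore measure the spread between these libraries, which may in part be technical.

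IL-21 is made mainly by helper T cells and binds a receptor built of IL-21R and the common gamma chain. The kinases JAK1 and JAK3 on these chains then phosphorylate STAT3 and, to a smaller degree, other STAT factors such as STAT5. In CD8+ T cells the cytokine is known to raise granzymes and to shape the choice between effector and memory states. 21h10 is a computationally designed protein that engages the same receptor. In bulk RNA, fewer cells that express a gene and less of its RNA per cell cannot be told apart.

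For each gene the dose difference is the log2 ratio of 21h10 to mIL-21 at 1 nM minus the same ratio at 100 pM, so that a positive value means that 21h10 gained on mIL-21 with dose. It equals the step from 100 pM to 1 nM of 21h10 minus the same step of mIL-21. It was tested with edgeR's quasi-likelihood test on read counts in a fit of all 10 libraries of the experiment. The p-values were adjusted by Benjamini-Hochberg over all 13974 genes tested and are written as edgeR adjusted p, with a threshold of 0.05. Levels are counts per 1 M reads on genes (CPM), given for both libraries of a group. An exact permutation test of 2 against 2 libraries cannot go below p = 0.33, and none was run.

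Markers of T cells were high in each group. The summed level of 8 T cell markers lay between 3801 and 4370 CPM in the treated libraries, and the 6 erythroid markers together reached at most 0.410 CPM. Other markers moved with dose and cytokine. The 6 NK cell markers summed to between 327 and 329.9 CPM with mIL-21 at 100 pM and between 1614 and 1643 CPM with 21h10 at 1 nM. Gzma made up most of this, with 263 and 1600 CPM on average. Between these groups Eomes fell from 59.4 to 20.9 CPM, Klrb1c from 0.460 to 0.249 CPM and Tyrobp from 0.285 to 0.187 CPM. Klrc2 rose from 5.07 to 7.67 CPM, and Ncr1 stayed at or below 0.0608 CPM on average in each treated group. The 7 myeloid markers rose from between 31.5 and 33.1 CPM to between 102 and 109 CPM over the same groups, with Itgam and Cd68 in front and Lyz2 at 0.0694 CPM or less on average. The sum of the 6 dendritic cell markers fell from between 34.9 and 35.1 CPM to between 8.31 and 9.07 CPM, which followed Itgax alone. Itgax fell from 33.5 to 2.55 CPM on average over these groups. Flt3, Zbtb46 and Xcr1 rose, from 0.121, 0.942 and 0.360 CPM to 1.69, 3.88 and 0.523 CPM. Siglech went from 0.0797 to 0.0436 CPM, and Clec9a stayed at 0.0128 CPM or less on average. The B cell markers summed to between 6.46 and 14.97 CPM. The part of such cells in the results was not tested. Reads on genes numbered 36824740 to 92436444 in the treated libraries, and the biological coefficient of variation of the fit was 4.32%.

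The dose difference passed the threshold in 2570 genes, which is 18.4% of those tested. It was positive in 1166 of them and negative in 1404. Positive calls thus made up 45.4%, but this share depended on the scaling, and came to 56.8% with DESeq2's size factors, 58.7% with the authors' mapped reads as library size and 63.2% with limma on log2(RPKM + 1). Scaling by mapped reads also moved the median log2 ratio of all genes at 100 pM from −0.0067 to −0.11. Without either duplicate of mIL-21 at 100 pM the total fell to 1665 and 1650. For reference, 21h10 differed from mIL-21 in 38.6% of genes at 100 pM (19.6% higher, 19% lower) and in 37.7% at 1 nM (19.6% higher, 18.1% lower).

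The 2570 genes were placed in 3 kinds by the size of the log2 ratio, whatever its sign. A gap that grew had the larger ratio at 1 nM and was past the threshold there, one that shrank had the larger ratio at 100 pM and was past it there, and genes past it at both doses with opposite signs were set apart as reversed. The gap between the cytokines grew with dose in 1257 genes (9% of all tested), with 21h10 ending higher in 597 (4.27%) and lower in 660 (4.72%). It shrank in 1025 genes (7.34%), of which 592 (4.24%) had been higher with 21h10 at 100 pM and 433 (3.1%) lower. It reversed in 236 genes (1.69%), and 21h10 ended higher in 109 (0.78%) and lower in 127 (0.909%). The remaining 52 genes (0.372%) did not meet these rules. Ratios of opposite sign at the 2 doses, one of them not past the threshold, were also found in 228 of the 597, 290 of the 660, 258 of the 592 and 265 of the 433 genes. Without either duplicate of mIL-21 at 100 pM 63 genes reversed to higher and 74 to lower, and without the first of 21h10 at 100 pM 68 and 75. Taking 1 library of each group in each of the 16 possible ways gave the same sign for all of the 2570 genes, and for 41.4% of all genes tested. A call made from these same libraries makes such agreement likely, so it adds no separate support.

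**Figure D1:**
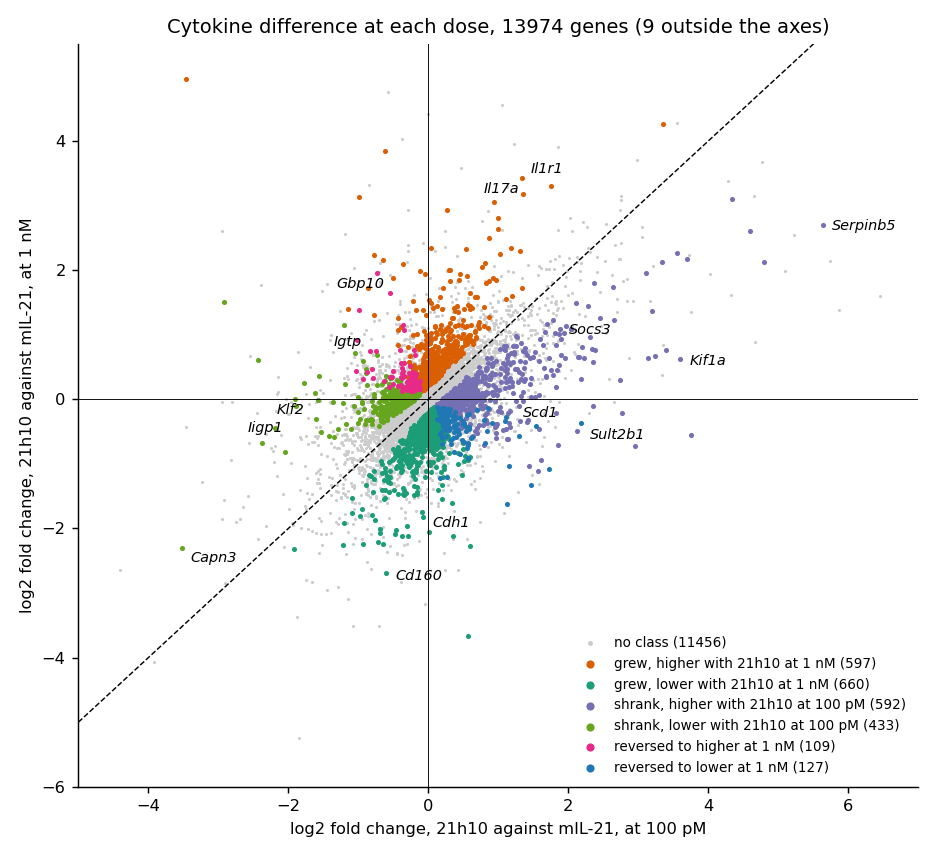
Log2 ratio of 21h10 to mIL-21 at 100 pM (x axis) and at 1 nM (y axis) for the 13974 genes tested, coloured by class; the diagonal marks an equal ratio at both doses and 9 genes lie outside the axes. The 236 genes whose gap reversed fill the upper left and lower right, and those whose gap shrank lie between the diagonal and the x axis or just past that axis.

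The kinds differed in which cytokine moved between 100 pM and 1 nM. Since the classes were built from these values, the following counts describe them and test nothing. Where the gap grew, it was mostly 21h10 that had moved: it rose with dose in 572 of the 597 genes that ended higher and fell in 639 of the 660 that ended lower, beside 20.1% rising and 19.1% falling among all genes. Where it shrank, mIL-21 had moved: it rose with dose in 533 of the 592 genes that had been higher with 21h10 and fell in 381 of the 433 that had been lower, beside 17.9% rising and 16.6% falling among all genes. Where it reversed, in most genes both moved and in opposite directions. Among the 109 genes that turned higher, 21h10 rose in 97 and mIL-21 fell in 77, and among the 127 that turned lower, 21h10 fell in 120 and mIL-21 rose in 93.

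The reversed genes had a particular order of groups, part of which the rule for the class sets in advance. The order describes the class and tests nothing. In 97 of the 109 that turned higher, the 4 libraries of the groups 21h10 100 pM and mIL-21 1 nM lay below all 4 libraries of mIL-21 at 100 pM and of 21h10 at 1 nM, an order held by 2.75% of all genes. In 113 of the 127 that turned lower they lay above all 4, against 2.91% of all genes.

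The chains of the IL-21 receptor did not pass the test: the dose difference was −0.13 (SE 0.0659, edgeR adjusted p = 0.206) for Il21r and −0.12 (SE 0.0619, edgeR adjusted p = 0.202) for Il2rg. Of the 9 common gamma chain family receptors tested, Il4ra alone passed, with 307 and 298 CPM with mIL-21 and 281 and 271 CPM with 21h10 at 100 pM, and 301 and 318 CPM with mIL-21 and 388 and 359.9 CPM with 21h10 at 1 nM. Il4ra encodes the chain shared by the IL-4 and IL-13 receptors, and its libraries with 21h10 were the lower ones at 100 pM and the higher ones at 1 nM. Its dose difference was 0.41 (SE 0.0696, edgeR adjusted p = 0.000585).

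Of 11 JAK and STAT genes, 6 passed, 4 with a positive and 2 with a negative difference. Stat5a, which acts downstream of several gamma chain cytokines, was one of those that gained. Its level was 105 and 101 CPM with mIL-21 and 143.3 and 146 CPM with 21h10 at 100 pM, and 169 and 173 CPM with mIL-21 and 414 and 386 CPM with 21h10 at 1 nM, with each group of 21h10 above that of mIL-21. The gap grew by 0.74 (SE 0.0677, edgeR adjusted p = 1.05e-06). Stat2 gained 0.31, and Jak2 passed as well but lost its call without any one of 4 libraries. Stat4, which carries IL-12 signals, fell further behind with 21h10, with a dose difference of −0.34 (SE 0.0732, edgeR adjusted p = 0.00334), and its call was lost with limma. The gene model Gm28177 covers 26.7% of the exonic bases of Stat4. Stat3 itself, the main STAT of IL-21, was higher with 21h10 at both doses, by 0.54 and 0.35, with a small negative difference of −0.19 (SE 0.0630, edgeR adjusted p = 0.0406) that missed the threshold in 15 of 17 other settings. With DESeq2 and with mapped-read library sizes 5 genes of the list were positive and 1 negative.

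Feedback regulators were mixed, with 3 of 14 positive and 3 negative. Socs3 (NM_007707, chr11:117966079-117970336), an inhibitor of JAK kinases that STAT3 induces, had the largest difference. Its level was 47.8 and 44.6 CPM with mIL-21 and 172 and 169 CPM with 21h10 at 100 pM, and 296 and 312 CPM with mIL-21 and 686 and 606 CPM with 21h10 at 1 nM, against 6.57 and 6.67 CPM without cytokine. The 4 groups rose in the order of mIL-21 at 100 pM, 21h10 at 100 pM, mIL-21 at 1 nM and 21h10 at 1 nM, and none overlapped. The fold over mIL-21 went from 3.69 to 2.12, and the dose difference was −0.80 (SE 0.0818, edgeR adjusted p = 3.72e-06). Cish and Socs1, also induced by cytokines, did not pass (dose differences of −0.15 and 0.071), and Socs1 changed sign when the first duplicate of either cytokine at 1 nM was left out (to −0.10 and −0.088).

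Targets of these signals that drive growth split by gene. Of 18 genes of the Pim, Myc and G1 list, 4 were positive and 2 negative. Pim1, a kinase induced by STATs, was higher with 21h10 at both doses, and the gap shrank: 99.5 and 92.8 CPM with mIL-21 and 204.7 and 205.3 CPM with 21h10 at 100 pM, and 259.9 and 277 CPM with mIL-21 and 399 and 378 CPM with 21h10 at 1 nM, with a dose difference of −0.56 (SE 0.0708, edgeR adjusted p = 3.22e-05). Myc reversed, with 265 and 267 CPM with mIL-21 and 185 and 188 CPM with 21h10 at 100 pM, and 200.1 and 208.4 CPM with mIL-21 and 248 and 231 CPM with 21h10 at 1 nM, and a dose difference of 0.74 (SE 0.0663, edgeR adjusted p = 8.89e-07). For Pim1 the groups rose in the same order as for Socs3, whereas for Myc mIL-21 at 1 nM and 21h10 at 100 pM held the lowest 4 libraries.

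Interferon-stimulated genes that passed had mostly positive dose differences. They are switched on by STAT factors and by interferon regulatory factors, and include the guanylate-binding proteins (Gbp) and the immunity-related GTPases (Igtp, Irgm, Iigp, Tgtp), which attack microbes inside cells. Of 51 tested, 20 passed, 18 positive and 2 negative, beside 8.34% positive and 10% negative among all genes. Of the 18, 7 reversed to higher with 21h10, 7 had been lower with 21h10 at 100 pM and closed the gap, and 4 grew. The list as a whole stayed lower with 21h10: the median log2 ratio of the 51 genes was −0.45 at 100 pM and −0.33 at 1 nM, with 37 genes lower and 5 higher past the threshold at 100 pM and 27 lower and 14 higher at 1 nM.

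Igtp (NM_018738, chr11:58199556-58207592) had 213 and 213 CPM with mIL-21 and 128 and 127 CPM with 21h10 at 100 pM, and 153 and 151 CPM with mIL-21 and 255 and 254 CPM with 21h10 at 1 nM. The duplicates nearly coincided. The 21h10 libraries were the lower ones at 100 pM and the higher ones at 1 nM, without overlap. The dose difference was 1.49 (SE 0.0595, edgeR adjusted p = 7.17e-11). Its neighbour Irgm2 (NM_019440, chr11:58214977-58222783), with which it shares 162 annotated exonic bases on the same strand, moved alike, with 78.2 and 74.8 CPM with mIL-21 and 40.01 and 40.4 CPM with 21h10 at 100 pM, and 51.4 and 51.5 CPM with mIL-21 and 64.6 and 62.9 CPM with 21h10 at 1 nM, and a dose difference of 1.24 (SE 0.0694, edgeR adjusted p = 2.87e-09). Both were higher without cytokine (Igtp 401 and 397 CPM, Irgm2 115 and 118 CPM).

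Gbp10 (NM_001039646, chr5:105215699-105239533) and Gbp6 (NM_194336, chr5:105270702-105295871) also reversed. Gbp10 had 81.7 and 82.4 CPM with mIL-21 and 58.0 and 54.7 CPM with 21h10 at 100 pM, and 70.2 and 60.6 CPM with mIL-21 and 184 and 222 CPM with 21h10 at 1 nM, and Gbp6 had 140.3 and 136.8 CPM with mIL-21 and 109 and 108 CPM with 21h10 at 100 pM, and 134.1 and 118 CPM with mIL-21 and 257 and 303 CPM with 21h10 at 1 nM. In both genes, 21h10 at 1 nM held the highest libraries and 21h10 at 100 pM the lowest. Their dose differences were 2.18 (SE 0.110, edgeR adjusted p = 9.84e-10) and 1.51 (SE 0.0965, edgeR adjusted p = 1.49e-08). The 2 genes cannot be counted as separate results, since 88.7% of the Gbp10 transcript aligns to Gbp6 at 99.17% identity and both overlap the gene model Gm43302.

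Promoter stretches of 4 members of this group are shown because all 4 had a positive dose difference past the threshold and hold letters that STATs and interferon factors are known to bind. Sequences are from RefSeq on GRCm38.p6, 5′ to 3′ on the strand of the gene. Searched on both strands, in the 250 bases before each start, were TTCNNNGAA for STATs and GAAANNGAAA for interferon-stimulated response elements, whose matches do not overlap in the stretches shown. Capitals mark the matches. Both patterns were also found before Bst2, Gbp5, Gbp7 and Oas1a, which are not shown. Their folds of designed over native cytokine, at the lower and the higher dose, were 0.8111 and 0.865 (Bst2) and 1.214 and 1.352 (Gbp5). For Gbp7 they were 0.9875 and 0.9973, and for Oas1a 0.5296 and 0.6176. Whether the patterns go with the dose difference was not tested. The stretches of Igtp and Irgm2 are near copies, and those of Tgtp1 and Tgtp2 are much alike. Igtp (chr11:58199491-58199551, plus strand), Irgm2 (chr11:58214882-58214942, plus strand), Tgtp1 (chr11:48992294-48992354, minus strand) and Tgtp2 (chr11:49064253-49064313, minus strand) hold both patterns side by side.
Igtp: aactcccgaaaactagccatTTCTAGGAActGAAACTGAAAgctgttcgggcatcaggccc
Irgm2: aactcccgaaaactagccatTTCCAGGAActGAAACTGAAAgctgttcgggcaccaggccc
Tgtp1: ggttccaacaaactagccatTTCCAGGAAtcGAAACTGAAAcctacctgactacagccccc
Tgtp2: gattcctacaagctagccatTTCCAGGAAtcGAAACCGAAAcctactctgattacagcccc

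The next 5 stretches are shown for holding a single kind of match, whatever the course of the gene. Irf1, Trim30a and Gbp2 belong to the same list and were positive, while Irf8 and Socs3 come from other lists described below and above, and Socs3 was negative (−0.80). Irf1 (chr11:53769904-53769952, plus strand), Socs3 (chr11:117969492-117969540, minus strand) and Irf8 (chr8:120736167-120736233, plus strand, with 2 matches) carry the STAT pattern, and Trim30a (chr7:104465200-104465249, minus strand) and Gbp2 (chr3:142620584-142620633, plus strand) carry the interferon pattern, read on the opposite strand.
Irf1: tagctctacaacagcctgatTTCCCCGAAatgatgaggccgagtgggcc
Socs3: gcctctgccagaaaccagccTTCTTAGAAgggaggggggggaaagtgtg
Irf8: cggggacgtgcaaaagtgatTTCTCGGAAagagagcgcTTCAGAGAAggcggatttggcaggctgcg
Trim30a: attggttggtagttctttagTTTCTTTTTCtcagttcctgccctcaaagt
Gbp2: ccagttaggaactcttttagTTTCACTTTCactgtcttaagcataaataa

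Of the 13974 genes tested, 10260 had a promoter in the RefSeq table, and 7.25% of these held the STAT pattern and 3.26% the interferon pattern. Of the interferon-stimulated genes with a promoter in the table, past the threshold or not, 18 of 34 (52.9%) held the interferon pattern and 12 of 34 (35.3%) the STAT pattern. Those past the threshold made up 8 of these 18 and 6 of these 12, of 12 such genes in the table. Among all genes that reversed to higher with 21h10, 8 of 75 (10.7%) held the interferon pattern and 10 of 75 (13.3%) the STAT pattern. In the genes that reversed to lower the shares were 5.15% and 8.25%. A match describes the letters only and is not a measured site.

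Genes of antigen presentation leaned the same way, with 9 of 25 positive and 2 negative. Cd74, the invariant chain of MHC class II, closed a gap of −0.77 at 100 pM to −0.11 at 1 nM, and Nlrc5, the activator of MHC class I genes, one of −0.65 to −0.23. Psme2, a part of the proteasome activator, was higher with 21h10 at 1 nM (163 and 168 CPM, against 126 and 128 CPM with mIL-21) but has a near-identical copy in Psme2b. Tap2, a chain of the peptide transporter, had a dose difference of −0.31, and its call was lost with limma (−0.25), without the second duplicate of mIL-21 at 100 pM (−0.29) and without the first of 21h10 at 100 pM (−0.26).

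Iigp1 (NM_001146275, chr18:60373616-60392634), another interferon-inducible GTPase, was lower with 21h10 at both doses, and the gap closed. It had 24.7 and 23.4 CPM with mIL-21 and 4.93 and 4.45 CPM with 21h10 at 100 pM, and 6.39 and 4.77 CPM with mIL-21 and 3.44 and 3.48 CPM with 21h10 at 1 nM, against 55.1 and 49.4 CPM without cytokine. The 2 libraries of mIL-21 at 100 pM stood far above the other 6. The 21h10 level was 5.17-fold lower at 100 pM and 1.601-fold lower at 1 nM, and the dose difference was 1.69 (SE 0.176, edgeR adjusted p = 4.39e-06). Tgtp1 and Tgtp2 shrank in the same direction, by 0.83 and 0.76. Mx1, an antiviral GTPase, was one of the 2 that went the other way, by −0.67 with a call lost with limma, the second being Oas3, whose value of −0.20 missed the threshold in 14 of 17 other settings.

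**Figure D2:**
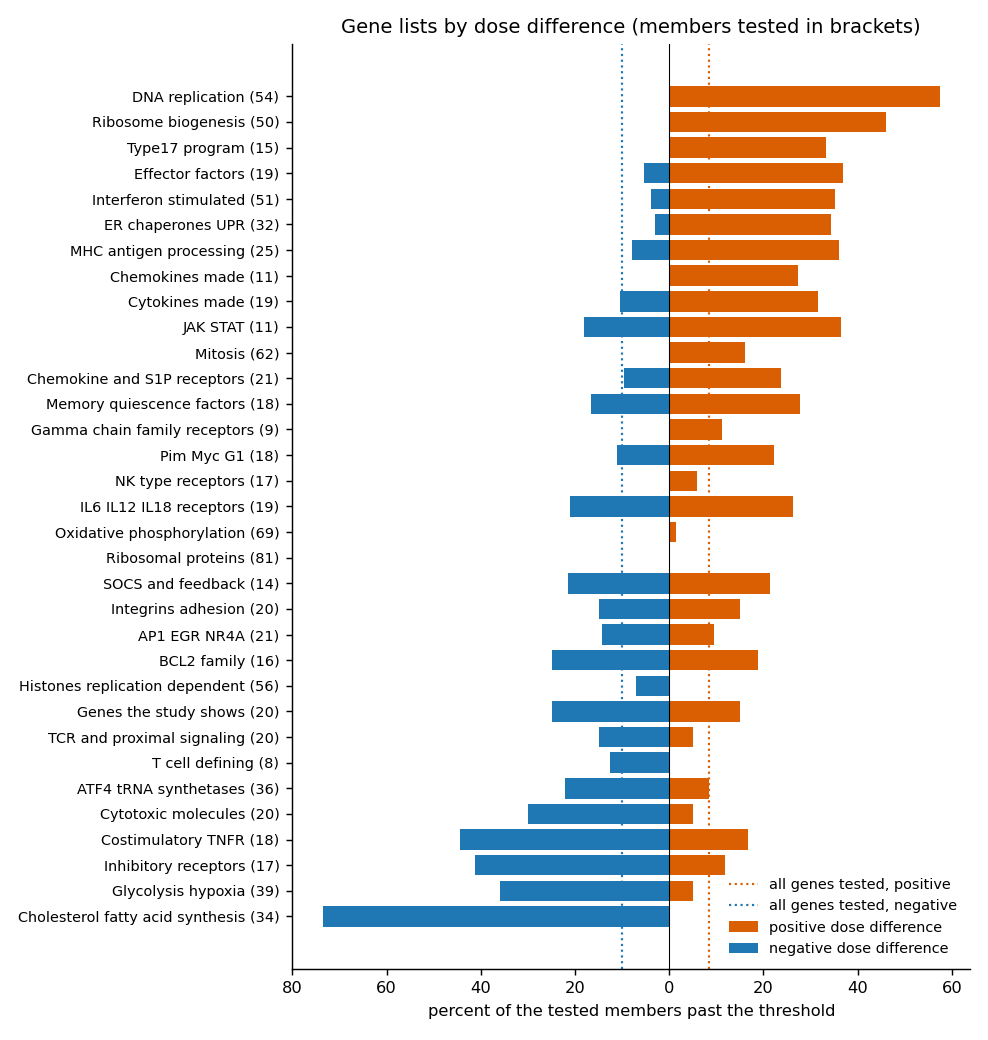
Percent of the tested members of each gene list past the threshold, with positive dose differences to the right and negative ones to the left, the number tested in brackets and dotted lines at the shares of all genes (8.34% and 10%). The cholesterol list is the longest bar to the left, with 25 of 34 genes, and DNA replication the longest to the right, with 31 of 54.

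Genes of the type 17 programme, named for the cytokine IL-17, passed in 5 of 15, and all 5 grew upward. Il1r1 (NM_001123382, chr1:40222480-40316201), the receptor for IL-1, which supports this programme, had 0.557 and 0.897 CPM with mIL-21 and 1.46 and 2.01 CPM with 21h10 at 100 pM, and 2.28 and 2.56 CPM with mIL-21 and 26.6 and 25.4 CPM with 21h10 at 1 nM. The level with 21h10 at 1 nM was 10.7-fold that with mIL-21, and the dose difference was 2.09 (SE 0.297, edgeR adjusted p = 1.00e-04). Il17a (NM_010552, chr1:20730905-20734496) was low, with 0.206 and 0.103 CPM with mIL-21 and 0.268 and 0.334 CPM with 21h10 at 100 pM, and 0.537 and 0.427 CPM with mIL-21 and 3.89 and 4.11 CPM with 21h10 at 1 nM, and its dose difference was 2.12 (SE 0.557, edgeR adjusted p = 0.0130). Il23r (NM_144548, chr6:67422932-67491855), the receptor chain for IL-23, had 0.660 and 0.359 CPM with mIL-21 and 0.748 and 1.24 CPM with 21h10 at 100 pM, and 1.33 and 0.967 CPM with mIL-21 and 6.96 and 7.24 CPM with 21h10 at 1 nM, and a dose difference of 1.65 (SE 0.401, edgeR adjusted p = 0.00801). The calls of Il17a and Il23r were lost when the first duplicate of mIL-21 at 100 pM was left out, with values of 1.49 and 1.11. Batf, a factor that opens the sites of this programme, gained 0.63. Rora, Maf and Ahr, which belong to the same list, were higher with 21h10 at both doses and did not pass, with dose differences of −0.077, 0.15 and 0.20. The sign of Rora changed without the second duplicate of mIL-21 at 1 nM (0.089) or the first of 21h10 at 1 nM (0.017).

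**Figure D3:**
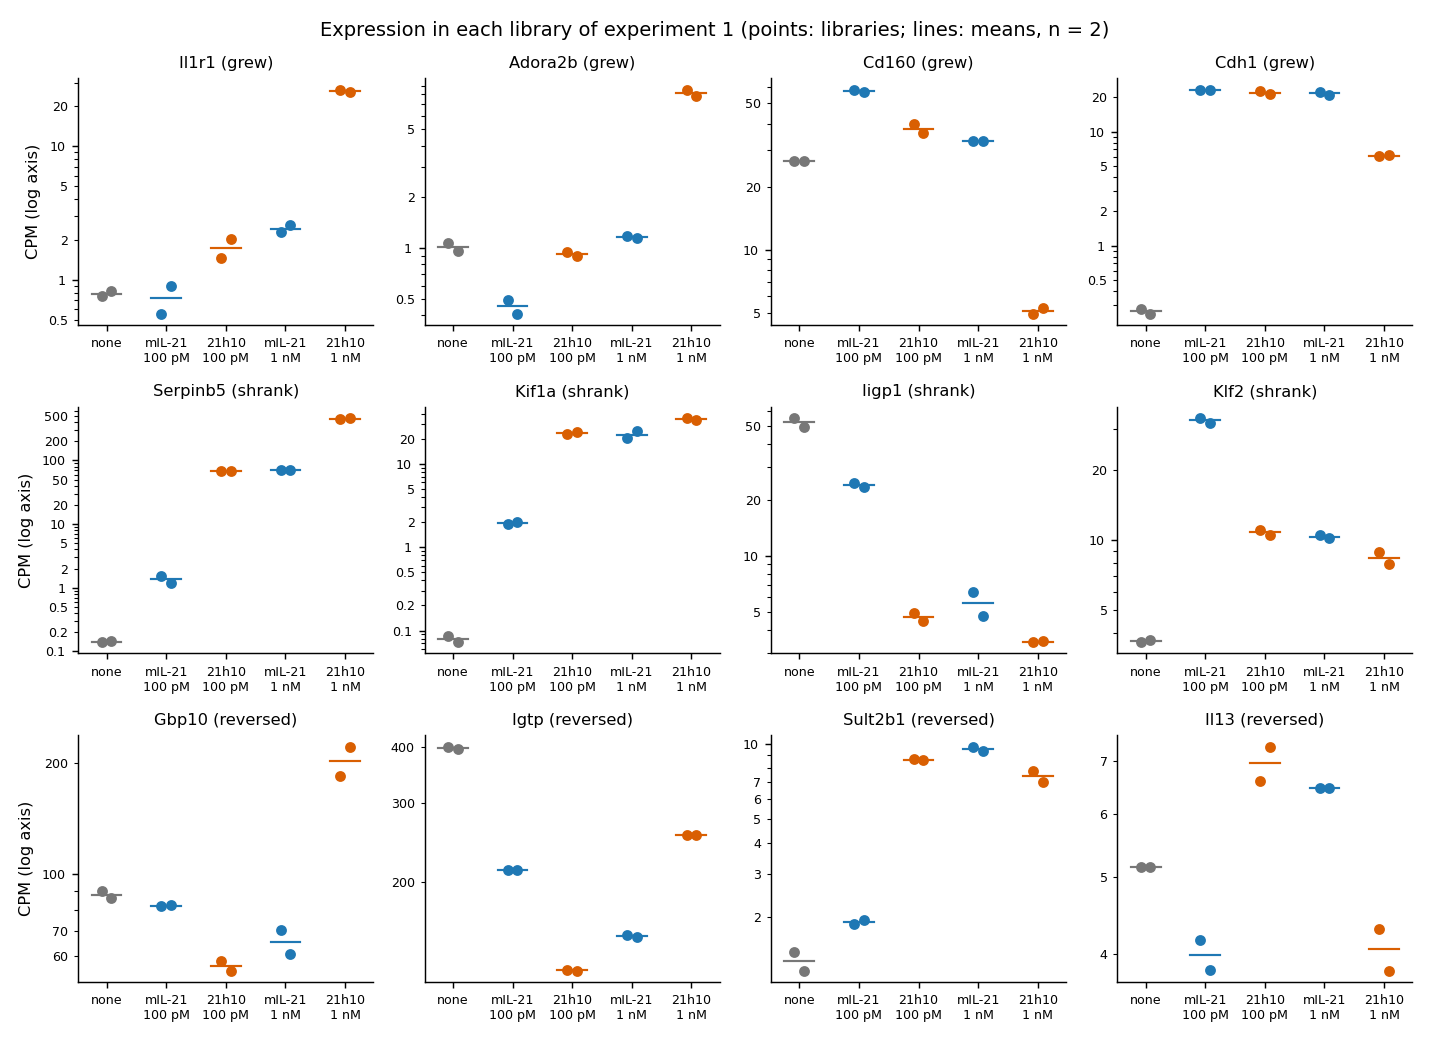
CPM on a log axis in each of the 10 libraries for 12 genes, 1 panel a gene, with groups in the order no cytokine, mIL-21 100 pM, 21h10 100 pM, mIL-21 1 nM and 21h10 1 nM. Points are single libraries and lines are means of 2. Il1r1 and Adora2b are highest with 21h10 at 1 nM, Cd160 and Cdh1 are lowest there among the treated groups, and Igtp and Gbp10 show the reversal.

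Other genes whose gap grew upward include Tmem158 (NM_001002267, chr9:123259057-123260789), a membrane protein first described in Ras-induced senescence, and Adora2b (NM_007413, chr11:62248984-62266452), a receptor for adenosine. Tmem158 had 0.392 and 0.410 CPM with mIL-21 and 1.04 and 1.01 CPM with 21h10 at 100 pM, and 1.25 and 1.71 CPM with mIL-21 and 14.8 and 12.3 CPM with 21h10 at 1 nM. Adora2b had 0.495 and 0.410 CPM with mIL-21 and 0.940 and 0.894 CPM with 21h10 at 100 pM, and 1.18 and 1.15 CPM with mIL-21 and 8.53 and 7.83 CPM with 21h10 at 1 nM. In both, 21h10 at 1 nM lay several-fold above every other group. Their dose differences were 1.83 (SE 0.368, edgeR adjusted p = 0.00208) and 1.82 (SE 0.314, edgeR adjusted p = 0.000620).

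Transcription factors of the effector state leaned upward, with 7 of 19 positive and 1 negative. Irf4, which scales with activation, had 140.1 and 153 CPM with mIL-21 and 167 and 168 CPM with 21h10 at 100 pM, and 164 and 165 CPM with mIL-21 and 301 and 311 CPM with 21h10 at 1 nM, and the libraries of 21h10 at 1 nM stood apart from the other 6. Its dose difference was 0.70 (SE 0.0684, edgeR adjusted p = 2.26e-06). Irf8, Xbp1, Batf3 and Zeb2 gained 0.64, 0.51, 0.62 and 0.44. Tbx21, which encodes T-bet, reversed: it had 77.0 and 73.6 CPM with mIL-21 and 64.8 and 64.4 CPM with 21h10 at 100 pM, and 63.2 and 71.7 CPM with mIL-21 and 92.8 and 87.2 CPM with 21h10 at 1 nM, so that 21h10 was lower at 100 pM and higher at 1 nM, with a dose difference of 0.64 (SE 0.0827, edgeR adjusted p = 4.22e-05). Prdm1, which encodes Blimp-1, was higher with 21h10 at both doses, and its dose difference of 0.07 (SE 0.0742, edgeR adjusted p = 0.574) did not pass. Ikzf2 was the negative one (−0.62).

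Chaperones of the endoplasmic reticulum, which fold secreted proteins and answer to Xbp1, were positive more often than negative, with 11 of 32 positive and 1 negative. Hspa5, the chaperone BiP, had 260.4 and 255 CPM with mIL-21 and 292 and 300.1 CPM with 21h10 at 100 pM, and 294 and 271 CPM with mIL-21 and 536 and 604 CPM with 21h10 at 1 nM. The 2 libraries of 21h10 at 1 nM stood well above the other 6. Its dose difference was 0.81 (SE 0.0799, edgeR adjusted p = 2.39e-06). Hyou1, Manf and Calr gained 0.44, 0.42 and 0.38. Derl3 was positive by another route, having been lower with 21h10 at 100 pM (0.268 and 0.485 CPM against 1.44 and 1.59 CPM), and its call was lost without the first duplicate of 21h10 at 1 nM (value 1.59).

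Cytokine and chemokine genes went both ways. Of 19 cytokine genes 6 were positive and 2 negative, and of 11 chemokine genes 3 were positive. Lif and Osm, of the IL-6 family, gained 0.91 and 0.79. Ccl4, a chemokine of activated T cells, had 0.928 and 0.9996 CPM with mIL-21 and 2.13 and 2.21 CPM with 21h10 at 100 pM, and 5.47 and 4.99 CPM with mIL-21 and 28.2 and 25.01 CPM with 21h10 at 1 nM, with 21h10 above mIL-21 at both doses, and a dose difference of 1.17 (SE 0.211, edgeR adjusted p = 0.000861). Lta (NM_010735, chr17:35203165-35205578), the lymphotoxin alpha chain, closed a gap: it had 21.8 and 21.4 CPM with mIL-21 and 7.46 and 9.10 CPM with 21h10 at 100 pM, and 8.26 and 8.99 CPM with mIL-21 and 9.17 and 7.77 CPM with 21h10 at 1 nM, so that mIL-21 at 100 pM alone was high, and its dose difference was 1.32 (SE 0.143, edgeR adjusted p = 6.41e-06). Ifng was higher with 21h10 at both doses, and its dose difference of −0.31 (SE 0.171, edgeR adjusted p = 0.241) did not pass. The gene model Gm49751 overlaps 25.9% of its exonic bases.

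Il13 (NM_008355, chr11:53631323-53634702), a type 2 cytokine, was the only one of the list to reverse downward. It had 4.17 and 3.82 CPM with mIL-21 and 6.597 and 7.29 CPM with 21h10 at 100 pM, and 6.47 and 6.47 CPM with mIL-21 and 4.31 and 3.82 CPM with 21h10 at 1 nM. The libraries of mIL-21 at 100 pM and of 21h10 at 1 nM all lay below the 4 others. The dose difference was −1.48 (SE 0.156, edgeR adjusted p = 4.97e-06).

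The genes named for growing downward are Cd160, Cdh1, Zfp365, Mgat3 and Fam26f. Cd160 (NM_001163496, chr3:96798763-96829351), an inhibitory receptor on cytotoxic lymphocytes, had 58.2 and 56.9 CPM with mIL-21 and 39.9 and 36.0 CPM with 21h10 at 100 pM, and 33.2 and 33.1 CPM with mIL-21 and 4.95 and 5.28 CPM with 21h10 at 1 nM. The groups did not overlap and fell in the order in which those of Socs3 rose. At 1 nM the gene was 6.45-fold lower with 21h10 than with mIL-21. The dose difference was −2.09 (SE 0.101, edgeR adjusted p = 6.17e-10). Cdh1 (NM_009864, chr8:106603350-106670247), which encodes E-cadherin, a ligand of the integrin CD103, had 23.3 and 22.97 CPM with mIL-21 and 22.7 and 21.3 CPM with 21h10 at 100 pM, and 22.3 and 21.1 CPM with mIL-21 and 6.07 and 6.23 CPM with 21h10 at 1 nM. Only 21h10 at 1 nM was low, while the other 6 libraries lay between 21.1 and 23.3 CPM. The dose difference came to −1.74 (SE 0.105, edgeR adjusted p = 6.51e-09).

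Zfp365 (NM_178679, chr10:67886105-67912662) showed the same shape, with 37.0 and 35.7 CPM with mIL-21 and 29.3 and 29.6 CPM with 21h10 at 100 pM, and 29.8 and 29.4 CPM with mIL-21 and 7.94 and 7.26 CPM with 21h10 at 1 nM, and a dose difference of −1.67 (SE 0.0952, edgeR adjusted p = 3.56e-09). Mgat3 (NM_010795, chr15:80173651-80215519), an enzyme of N-glycan branching, had 10.3 and 9.74 CPM with mIL-21 and 10.9 and 12.0 CPM with 21h10 at 100 pM, and 11.1 and 10.4 CPM with mIL-21 and 4.36 and 4.19 CPM with 21h10 at 1 nM, and its dose difference was −1.52 (SE 0.137, edgeR adjusted p = 8.89e-07). Fam26f (NM_175449, chr10:34126067-34127972), also called Calhm6, had 5.79 and 6.33 CPM with mIL-21 and 3.74 and 3.64 CPM with 21h10 at 100 pM, and 3.04 and 4.001 CPM with mIL-21 and 0.951 and 0.633 CPM with 21h10 at 1 nM, and its dose difference was −1.49 (SE 0.257, edgeR adjusted p = 0.000597). In all 3 genes 21h10 at 1 nM was lower than each of the other 6 libraries.

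Inhibitory receptors were more often negative than positive, with 2 of 17 positive and 7 negative. Pdcd1, which encodes PD-1, had 30.5 and 31.7 CPM with mIL-21 and 29.0 and 26.1 CPM with 21h10 at 100 pM, and 30.1 and 30.0 CPM with mIL-21 and 15.6 and 12.9 CPM with 21h10 at 1 nM, with 21h10 at 1 nM alone low, and a dose difference of −0.91 (SE 0.113, edgeR adjusted p = 2.71e-05). Havcr2, which encodes TIM-3, came to a negative value by another route. Its log2 ratio went from 0.79 to 0.054, with a dose difference of −0.74 (SE 0.0854, edgeR adjusted p = 1.26e-05). Lag3 shrank likewise, from 1.17 to 0.54. Entpd1 and Btla were positive (0.39 and 0.54). For Tigit the value of 0.18 (SE 0.0776, edgeR adjusted p = 0.129) did not pass.

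Costimulatory receptors leaned likewise, with 3 of 18 positive and 8 negative. Cd226, an activating receptor that shares the ligand CD155 with TIGIT, had 120.0 and 121 CPM with mIL-21 and 104 and 103 CPM with 21h10 at 100 pM, and 117 and 96.9 CPM with mIL-21 and 44.7 and 48.9 CPM with 21h10 at 1 nM, and a dose difference of −0.96 (SE 0.0960, edgeR adjusted p = 2.81e-06). Tnfrsf4, Tnfrsf9 and Tnfrsf18, which encode OX40, 4-1BB and GITR, were higher with 21h10 at both doses and the gap shrank, with dose differences of −0.72, −0.57 and −0.55. Cd7 reversed downward, with 36.6 and 39.5 CPM with mIL-21 and 50.9 and 47.8 CPM with 21h10 at 100 pM, and 43.5 and 47.1 CPM with mIL-21 and 27.4 and 24.2 CPM with 21h10 at 1 nM, and a dose difference of −1.19 (SE 0.102, edgeR adjusted p = 4.94e-07). Icos gained 0.55.

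Genes whose gap shrank from above include very large ratios at 100 pM. Serpinb5 (NM_009257, chr1:106861175-106883348), which encodes maspin, had 1.51 and 1.205 CPM with mIL-21 and 68.7 and 67.4 CPM with 21h10 at 100 pM, and 69.8 and 69.8 CPM with mIL-21 and 447 and 462 CPM with 21h10 at 1 nM, against 0.141 and 0.145 CPM without cytokine. The level of 21h10 at 100 pM nearly met that of mIL-21 at 1 nM, and 21h10 at 1 nM was far above both. The fold of 21h10 over mIL-21 was 49.6 at the lower and 6.51 at the higher dose, and the dose difference was −2.93 (SE 0.107, edgeR adjusted p = 3.33e-11). Kif1a (NM_008440, chr1:93015455-93102039), a kinesin motor known from neurons, had 1.88 and 1.999 CPM with mIL-21 and 22.8 and 24.01 CPM with 21h10 at 100 pM, and 20.4 and 24.5 CPM with mIL-21 and 35.4 and 33.8 CPM with 21h10 at 1 nM, and a dose difference of −2.98 (SE 0.142, edgeR adjusted p = 6.17e-10).

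Moxd1 (NM_021509, chr10:24223517-24302783), a relative of dopamine beta-hydroxylase, was near 0 with mIL-21 at 100 pM, with 0 and 0.0513 CPM with mIL-21 and 6.23 and 6.38 CPM with 21h10 at 100 pM, and 3.12 and 3.19 CPM with mIL-21 and 44.7 and 42.5 CPM with 21h10 at 1 nM. With 3 reads per library as the floor, 21h10 was at least 90.9-fold higher at 100 pM and 13.8-fold higher at 1 nM. The fitted dose difference was −4.19 (SE 0.536, edgeR adjusted p = 3.46e-05), which depends on the prior count, and it was −2.72 with the floor in place of the mIL-21 level. On the log2(RPKM + 1) scale of limma, which understates low genes, its sign was reversed, at 1.31. Slc1a1 (NM_009199, chr19:28835135-28913960), a glutamate transporter, had 0.144 and 0.0256 CPM with mIL-21 and 2.22 and 2.27 CPM with 21h10 at 100 pM, and 2.94 and 2.74 CPM with mIL-21 and 17.8 and 16.6 CPM with 21h10 at 1 nM, and a dose difference of −1.99 (SE 0.466, edgeR adjusted p = 0.00617). It too was reversed with limma (0.97) and lost its call without the second duplicate of mIL-21 at 100 pM (−1.34). The gene 4430402I18Rik covers 31.9% of its exonic bases on the other strand.

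Lars2 (NM_153168, chr9:123366927-123462675), a mitochondrial leucyl-tRNA synthetase, met the rule for naming, but its duplicates were far apart, with 568 and 833 CPM with mIL-21 and 3194 and 938 CPM with 21h10 at 100 pM, and 1187 and 3134 CPM with mIL-21 and 829.6 and 1176 CPM with 21h10 at 1 nM. The duplicates of 21h10 at 100 pM and of mIL-21 at 1 nM lay further apart than the nearest libraries of the cytokines at either dose. Its dose difference of −2.67 (SE 0.637, edgeR adjusted p = 0.00714) was no longer past the threshold with DESeq2 (−2.63) or without the first duplicate of 21h10 at 100 pM (−1.53).

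Of 20 cytotoxic genes 1 was positive and 6 negative, of which 5 shrank from above and 1 reversed. The median log2 ratio of the 20 went from 0.39 to 0.33. Gzma (NM_010370, chr13:113093824-113100981), which encodes granzyme A, had 266 and 259.9 CPM with mIL-21 and 1056 and 974 CPM with 21h10 at 100 pM, and 1017 and 1039 CPM with mIL-21 and 1614 and 1586 CPM with 21h10 at 1 nM, against 39.995 and 41.1 CPM without cytokine. The fold of 21h10 over mIL-21 was 3.86 at the lower dose and 1.56 at the higher one. The groups 21h10 100 pM and mIL-21 1 nM overlapped. The dose difference was −1.31 (SE 0.0684, edgeR adjusted p = 1.37e-09). Gzmb had 2954 and 2965 CPM with mIL-21 and 5491 and 5433 CPM with 21h10 at 100 pM, and 6073 and 6115 CPM with mIL-21 and 7457 and 7714 CPM with 21h10 at 1 nM and a smaller difference of −0.57 (SE 0.0627, edgeR adjusted p = 7.93e-06). Prf1, which encodes perforin, had log2 ratios of 1.27 at the lower and 0.97 at the higher dose, and its difference of −0.30 (SE 0.0873, edgeR adjusted p = 0.0232) was lost without the second duplicate of mIL-21 at 100 pM (−0.25) or 1 nM (−0.28), the first of 21h10 at 100 pM (−0.22) or the second at 1 nM (−0.22), and also with limma (−0.22) and with mapped-read library sizes (−0.24). Serpinb9, which protects the cell from its own granzyme B, reversed downward, with 117 and 122 CPM with mIL-21 and 134.5 and 138.7 CPM with 21h10 at 100 pM, and 151 and 143.4 CPM with mIL-21 and 91.1 and 91.6 CPM with 21h10 at 1 nM, and a dose difference of −0.88 (SE 0.0670, edgeR adjusted p = 1.30e-07).

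**Figure D4:**
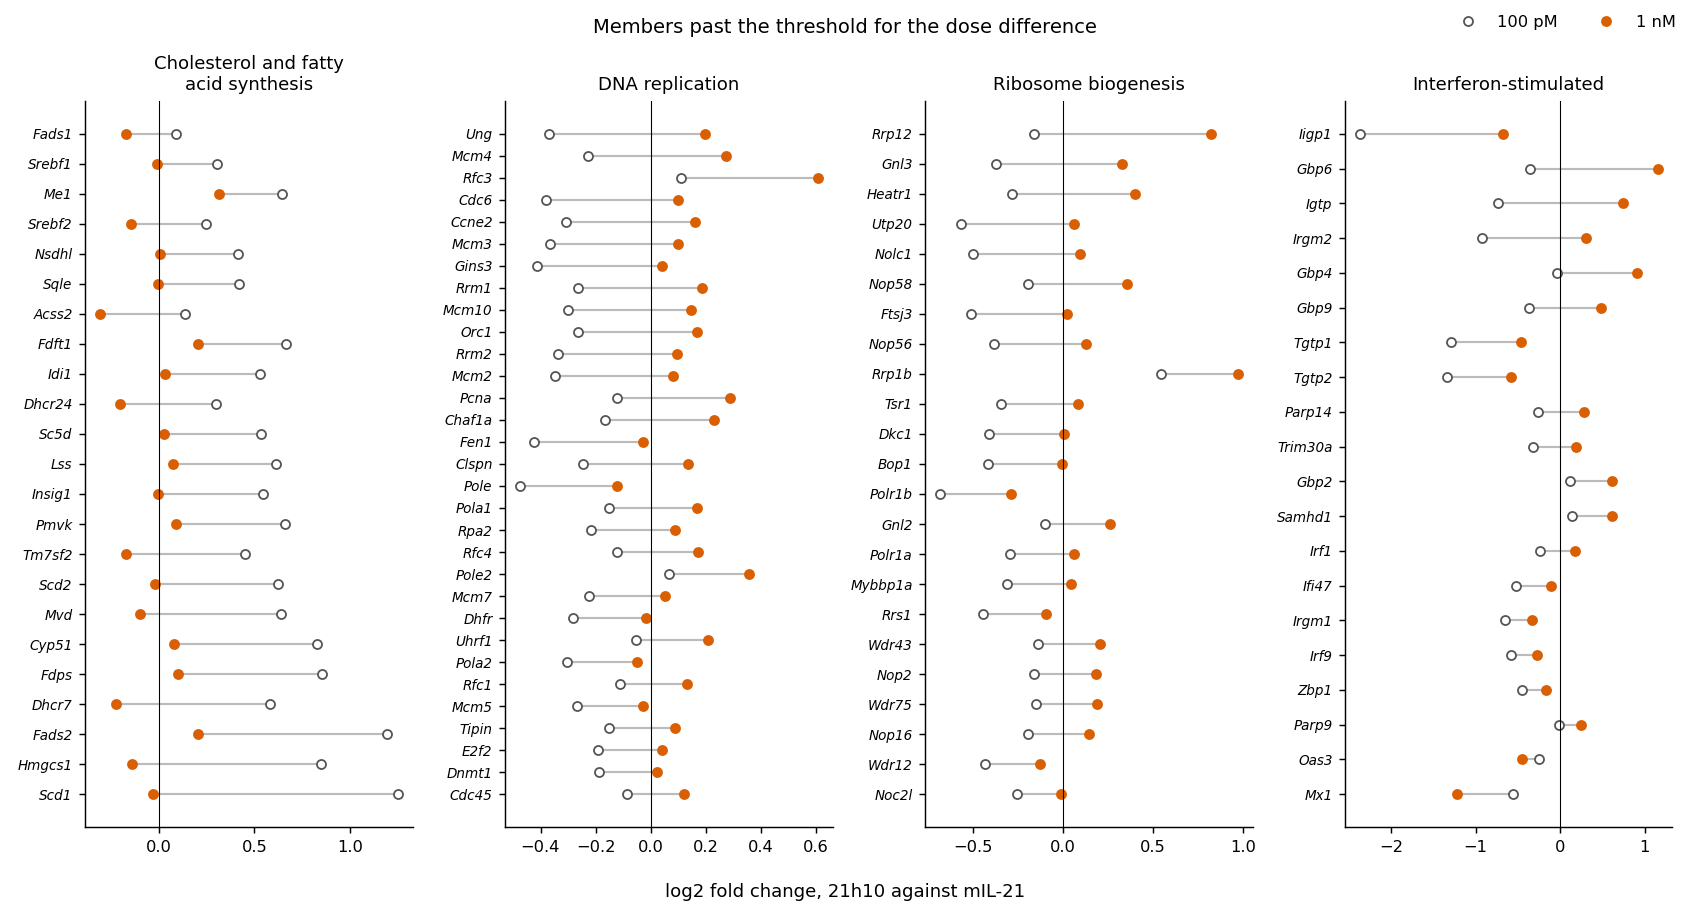
Log2 ratio of 21h10 to mIL-21 (x axis) at 100 pM (open points) and 1 nM (filled points) for the members past the threshold of 4 gene lists, a line joining the doses; 2 of the 25 cholesterol genes are not drawn. Cholesterol genes run from a median of 0.49 over the list down to about 0, the DNA replication and ribosome biogenesis genes all run to the right, and of the interferon-stimulated genes only Mx1 and Oas3 run to the left.

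Cholesterol and fatty acid synthesis was the list with the largest share of calls. Its enzymes are switched on together by SREBP factors when membranes are being built. Of 34 genes 25 passed (73.5%) and all 25 were negative. Of these, 19 had been higher with 21h10 at 100 pM and closed the gap, 4 reversed to lower and 2 grew lower. The median log2 ratio over the 34 genes was 0.49 at 100 pM and −0.0054 at 1 nM. All calls were also negative with DESeq2 (24) and with mapped-read library sizes (22).

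Single enzymes show the shape. Scd1 (NM_009127, chr19:44394450-44407709), which makes monounsaturated fatty acids, had 117 and 114 CPM with mIL-21 and 265 and 284 CPM with 21h10 at 100 pM, and 247 and 242 CPM with mIL-21 and 239 and 240.2 CPM with 21h10 at 1 nM. The group of mIL-21 at 100 pM stood alone and low, and at 1 nM the 4 libraries lay between 239 and 247 CPM. The dose difference was −1.28 (SE 0.0664, edgeR adjusted p = 1.37e-09). Hmgcs1 (NM_145942, chr13:119690351-119708260), an early enzyme of the mevalonate pathway, had 245 and 238 CPM with mIL-21 and 429.6 and 439.6 CPM with 21h10 at 100 pM, and 429.5 and 387 CPM with mIL-21 and 369.6 and 371 CPM with 21h10 at 1 nM; 21h10 was 1.80-fold higher at 100 pM and 1.10-fold lower at 1 nM, and the dose difference was −0.99 (SE 0.0716, edgeR adjusted p = 6.59e-08). The gene model Gm48342 overlaps 12.1% of its exonic bases on the other strand. Srebf2 itself, the factor that drives these genes, went from 0.25 to −0.15.

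In the list of the ATF4 response, which answers a shortage of amino acids, 8 of 36 genes were negative and 3 positive, and all 8 had been higher with 21h10 at 100 pM and shrank. The list as a whole did not shrink, with a median log2 ratio of 0.47 at 100 pM and 0.50 at 1 nM. Ddit3, which encodes CHOP, had 29.0 and 27.3 CPM with mIL-21 and 69.2 and 70.1 CPM with 21h10 at 100 pM, and 59.99 and 63.4 CPM with mIL-21 and 85.8 and 100.4 CPM with 21h10 at 1 nM, and a dose difference of −0.71 (SE 0.0945, edgeR adjusted p = 5.42e-05). Atf5, Trib3 and Atf4 followed with −0.76, −0.62 and −0.37, and all 4 stayed higher with 21h10 at 1 nM. The positive ones were the tRNA synthetase genes Wars (0.48), Lars (0.41) and Farsb, of which Farsb lost its call without any one of 5 libraries.

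Glycolysis and hypoxia genes were negative in 14 of 39 and positive in 2, but this count fell to 6 and 2 with mapped-read library sizes. Ndrg1 had 282 and 278 CPM with mIL-21 and 448 and 457 CPM with 21h10 at 100 pM, and 383 and 421 CPM with mIL-21 and 427 and 455 CPM with 21h10 at 1 nM, and a dose difference of −0.56 (SE 0.0741, edgeR adjusted p = 4.85e-05). Car9, a carbonic anhydrase of hypoxic cells, had a dose difference of −0.85, and Aldoc one of −0.49. Hk2, the first enzyme of glycolysis in activated T cells, went the other way and reversed upward, with 222 and 221 CPM with mIL-21 and 185 and 190.3 CPM with 21h10 at 100 pM, and 179 and 185 CPM with mIL-21 and 221 and 236 CPM with 21h10 at 1 nM, and a dose difference of 0.57 (SE 0.0657, edgeR adjusted p = 1.32e-05).

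In the named genes whose gap shrank from below, mIL-21 at 100 pM was the highest treated group. Klf2 (NM_008452, chr8:72319062-72321654), a factor of quiescence and of exit from lymph nodes, had 33.5 and 32.1 CPM with mIL-21 and 11.1 and 10.5 CPM with 21h10 at 100 pM, and 10.5 and 10.2 CPM with mIL-21 and 8.86 and 7.89 CPM with 21h10 at 1 nM. The 2 libraries of mIL-21 at 100 pM stood far above the other 6. The 21h10 level was 3.04-fold lower at 100 pM and 1.24-fold lower at 1 nM, with a dose difference of 1.29 (SE 0.113, edgeR adjusted p = 6.40e-07). Its target S1pr1 reversed upward, from −0.26 to 0.19. Serpina3g (NM_009251, chr12:104236147-104241939), a serpin of activated lymphocytes, had 9.49 and 9.64 CPM with mIL-21 and 4.99 and 5.32 CPM with 21h10 at 100 pM, and 5.68 and 6.45 CPM with mIL-21 and 7.75 and 6.56 CPM with 21h10 at 1 nM, and its dose difference was 1.11 (SE 0.148, edgeR adjusted p = 5.47e-05). Capn3 (NM_007601, chr2:120463593-120504919), a calpain known from muscle, had 10.9 and 10.9 CPM with mIL-21 and 0.825 and 1.02 CPM with 21h10 at 100 pM, and 1.202 and 1.10 CPM with mIL-21 and 0.280 and 0.198 CPM with 21h10 at 1 nM, and a dose difference of 1.23 (SE 0.380, edgeR adjusted p = 0.0317). The call of Capn3 was lost without either duplicate of mIL-21 at 100 pM (1.23 and 1.23), either of 21h10 at 1 nM (1.001 and 1.496), the second of mIL-21 at 1 nM (1.16) or the first of 21h10 at 100 pM (1.12).

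Other factors of memory and quiescence were split, with 5 of 18 positive and 3 negative. Bcl6, which opposes Blimp-1, had 15.3 and 15.8 CPM with mIL-21 and 27.2 and 28.4 CPM with 21h10 at 100 pM, and 32.5 and 34.7 CPM with mIL-21 and 34.4 and 37.6 CPM with 21h10 at 1 nM; it was higher with 21h10 at 100 pM only, and the dose difference was −0.74 (SE 0.103, edgeR adjusted p = 7.89e-05). Its promoter carries the STAT pattern (chr16:23988942-23988990, minus strand).
Bcl6: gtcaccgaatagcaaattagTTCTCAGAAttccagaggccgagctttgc

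Tcf7, the factor of stem-like T cells, fell further behind with 21h10. It had 499.5 and 505 CPM with mIL-21 and 411 and 425 CPM with 21h10 at 100 pM, and 422 and 421 CPM with mIL-21 and 297 and 275 CPM with 21h10 at 1 nM. Its dose difference of −0.29 (SE 0.0654, edgeR adjusted p = 0.00423) was lost with limma. Myb reversed upward by 0.53. Zeb1 and Ets1 gained 0.44 and 0.27.

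DNA replication was the counterpart of the cholesterol list. Of 54 genes 31 passed (57.4%) and all 31 were positive: 17 had been lower with 21h10 at 100 pM and closed the gap, 7 reversed to higher, 5 grew and 2 were not placed. The median log2 ratio over the list was −0.18 at 100 pM and 0.087 at 1 nM. Mcm4, a subunit of the replicative helicase, had 235 and 234 CPM with mIL-21 and 197 and 203.7 CPM with 21h10 at 100 pM, and 215 and 198 CPM with mIL-21 and 244 and 256 CPM with 21h10 at 1 nM, so that 21h10 lay below mIL-21 at 100 pM and above it at 1 nM. Its dose difference was 0.50 (SE 0.0698, edgeR adjusted p = 8.36e-05). Mcm2, Mcm3, Mcm7 and Mcm10 were positive as well, from 0.27 to 0.47. Mcm5 passed but lost its call without any one of 8 libraries, and Mcm6 did not pass (0.12). Rrm1 and Rrm2, the subunits of ribonucleotide reductase, gained 0.45 and 0.43, and the clamp gene Pcna 0.41. Calls were likewise all positive with DESeq2 (35) and mapped-read library sizes (32).

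Ribosome biogenesis, which supplies growing cells and is driven by Myc, followed the same course. Of 50 genes 23 passed (46%), all positive, with 13 closing a gap from below, 6 reversing and 4 growing. Rrp12 (NM_199447, chr19:41859483-41896153), an export factor of ribosomal subunits, had 19.4 and 17.5 CPM with mIL-21 and 17.1 and 16.02 CPM with 21h10 at 100 pM, and 18.7 and 19.3 CPM with mIL-21 and 34.3 and 33.0 CPM with 21h10 at 1 nM and the largest difference, 0.99 (SE 0.0963, edgeR adjusted p = 2.30e-06). Gnl3 and Heatr1 reversed by 0.70 and 0.69. With DESeq2 29 and with mapped-read library sizes 28 genes were positive and none negative. Of 81 genes of ribosomal proteins, 0 passed with edgeR, 0 with DESeq2 and 1 with mapped-read library sizes. Mitosis genes passed in 10 of 62 (16.1%), under the share of 18.4% among all genes. All 10 were positive, beside 8.34% positive among all genes, and 19 passed with DESeq2. Ttk, a checkpoint kinase, gained 0.43 and Espl1, the separase, 0.41.

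Migration genes went both ways, though the negative calls among the receptors depended on the method. Of 21 chemokine and S1P receptor genes 33.3% passed, beside 18.4% of all genes, 5 positive and 2 negative. With DESeq2 5 were positive and 0 negative, and with mapped-read library sizes 5 and 1. Ccr4 (NM_009916, chr9:114490316-114505476) had 18.4 and 17.8 CPM with mIL-21 and 13.8 and 14.4 CPM with 21h10 at 100 pM, and 15.5 and 17.5 CPM with mIL-21 and 33.9 and 35.4 CPM with 21h10 at 1 nM, with 21h10 at 1 nM far above the other groups, and its log2 ratio went from −0.35 to 1.07. Its dose difference was 1.42 (SE 0.0986, edgeR adjusted p = 4.08e-08). Ccr7, which leads cells into lymph nodes, had 229.9 and 224 CPM with mIL-21 and 196 and 189.7 CPM with 21h10 at 100 pM, and 195 and 207.5 CPM with mIL-21 and 267 and 252 CPM with 21h10 at 1 nM, and a dose difference of 0.60 (SE 0.0673, edgeR adjusted p = 9.07e-06). Among integrins 3 of 20 were positive and 3 negative. Itgb1, the beta-1 chain, had 768 and 768 CPM with mIL-21 and 375 and 405 CPM with 21h10 at 100 pM, and 387 and 368 CPM with mIL-21 and 297 and 312 CPM with 21h10 at 1 nM, with mIL-21 at 100 pM alone high, and a dose difference of 0.67 (SE 0.0697, edgeR adjusted p = 4.39e-06). Itgam, the alpha chain of Mac-1 and one of the myeloid markers above, had 15.9 and 14.6 CPM with mIL-21 and 52.8 and 56.2 CPM with 21h10 at 100 pM, and 58.1 and 56.6 CPM with mIL-21 and 81.1 and 76.1 CPM with 21h10 at 1 nM, and a dose difference of −1.38 (SE 0.0901, edgeR adjusted p = 1.93e-08). The gene model Gm49368 covers 68.7% of its exonic bases.

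Cd83 (NM_009856, chr13:43785112-43803133), an activation marker, reversed to higher with 21h10. Its level fell with dose of mIL-21, while the 21h10 libraries of the 2 doses overlapped. It had 12.5 and 13.8 CPM with mIL-21 and 6.21 and 6.55 CPM with 21h10 at 100 pM, and 4.86 and 5.39 CPM with mIL-21 and 6.10 and 7.71 CPM with 21h10 at 1 nM, so that mIL-21 at 100 pM was highest and mIL-21 at 1 nM lowest, and its dose difference was 1.47 (SE 0.150, edgeR adjusted p = 3.41e-06). Egr2, an early factor of receptor signalling, had 1.44 and 1.41 CPM with mIL-21 and 0.748 and 0.830 CPM with 21h10 at 100 pM, and 0.614 and 0.697 CPM with mIL-21 and 1.31 and 0.949 CPM with 21h10 at 1 nM, and a dose difference of 1.59 (SE 0.325, edgeR adjusted p = 0.00231). Among AP-1, EGR and NR4A genes 2 of 21 were positive and 3 negative, and this balance turned to 2 and 0 with DESeq2 and to 3 and 1 with mapped-read library sizes.

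The genes named for reversing to lower came from several functions. Sult2b1 (NM_017465, chr7:45729981-45759672), a sulfotransferase of sterols, had 1.88 and 1.95 CPM with mIL-21 and 8.67 and 8.61 CPM with 21h10 at 100 pM, and 9.77 and 9.35 CPM with mIL-21 and 7.77 and 7.06 CPM with 21h10 at 1 nM. Only mIL-21 at 100 pM was low, while among the other 3 groups 21h10 at 1 nM was lowest. The level with 21h10 was 4.52-fold higher at the lower dose and 1.29-fold lower at the higher one, and the dose difference was −2.55 (SE 0.156, edgeR adjusted p = 7.83e-09). Fxyd7 (NM_022007, chr7:31042515-31051454), a regulator of the sodium pump, had 3.75 and 4.15 CPM with mIL-21 and 11.9 and 11.2 CPM with 21h10 at 100 pM, and 11.3 and 13.4 CPM with mIL-21 and 10.5 and 8.40 CPM with 21h10 at 1 nM, and Prph (NM_013639, chr15:99053579-99058978), the intermediate filament peripherin, had 2.76 and 2.05 CPM with mIL-21 and 6.12 and 5.88 CPM with 21h10 at 100 pM, and 6.26 and 6.50 CPM with mIL-21 and 4.98 and 3.76 CPM with 21h10 at 1 nM. Both had the same order of groups as Sult2b1, and their dose differences were −1.95 (SE 0.166, edgeR adjusted p = 4.94e-07) and −1.87 (SE 0.236, edgeR adjusted p = 3.11e-05). Sept4 (NM_011129, chr11:87566689-87590543), a septin, had 7.51 and 7.79 CPM with mIL-21 and 9.13 and 9.18 CPM with 21h10 at 100 pM, and 9.18 and 9.42 CPM with mIL-21 and 4.59 and 3.58 CPM with 21h10 at 1 nM, with 21h10 at 1 nM lowest, and a dose difference of −1.47 (SE 0.151, edgeR adjusted p = 3.71e-06).

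Receptors for IL-1, IL-6, IL-12 and IL-18 passed in 9 of 19, with 5 positive and 4 negative. Beside Il1r1 and Il23r, Il6ra had 1.84 and 2.38 CPM with mIL-21 and 2.93 and 3.31 CPM with 21h10 at 100 pM, and 2.74 and 3.19 CPM with mIL-21 and 7.75 and 8.42 CPM with 21h10 at 1 nM, and a dose difference of 0.85 (SE 0.206, edgeR adjusted p = 0.00761), which was lost without the second duplicate of mIL-21 at 100 pM (0.67). Il6st, the shared gp130 chain, gained 0.50. Il18rap fell behind with 21h10 at 1 nM, with 27.6 and 27.2 CPM with mIL-21 and 26.7 and 29.9 CPM with 21h10 at 100 pM, and 29.3 and 27.6 CPM with mIL-21 and 17.8 and 18.2 CPM with 21h10 at 1 nM, and a dose difference of −0.71 (SE 0.101, edgeR adjusted p = 0.000101).

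Survival genes of the BCL2 family passed in 7 of 16, with 3 positive and 4 negative. Bbc3, which encodes PUMA, reversed downward, with −0.62. The copies Bcl2a1a, Bcl2a1b and Bcl2a1d were each negative (between −0.77 and −0.67), but are at least 98.164% identical and count as 1 result. Bcl2 was higher with 21h10 at both doses, and its value of 0.21 (SE 0.0866, edgeR adjusted p = 0.115) did not pass.

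Some lists stood near or under the share of all genes. T cell receptor and proximal signalling genes passed in 4 of 20, with Tec at 0.90. NK-type receptors passed in 1 of 17 (Klrk1, 0.59), replication-dependent histones in 4 of 56, all negative and at low levels, and oxidative phosphorylation in 1 of 69 (Cycs, lost without any one of 3 libraries), which has near-identical processed copies. Above that share stood the 20 genes taken from the heat map of the study, a choice that was made on these samples. Of these 8 passed (40%, beside 18.4% of all genes), 3 positive and 5 negative, and with mapped-read library sizes 4 and 4.

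The nearest comparison in the series is the step from 10 nM to 100 nM in the second experiment, whose libraries are separate. Dose and experiment cannot be told apart there. The same contrast, the ratio at 100 nM minus that at 10 nM, passed in 127 of 13772 genes (0.922%), 63 positive (0.457%) and 64 negative (0.465%), with 1096 genes (7.96%) at an unadjusted p under 0.05. The biological coefficient of variation was 8.80% there. Of 13248 genes tested in both experiments, 60 passed in both, which is 2.37% of the calls of the first and 47.6% of those of the second, and 34 of the 60 had the same sign. Over all 13248 genes the 2 dose differences had a Pearson r of −0.020 and a Spearman rho of −0.024, as a description across genes. Of the genes called in the first, 49.7% had the same sign in the second, against 48.6% of all genes.

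**Figure D5:**
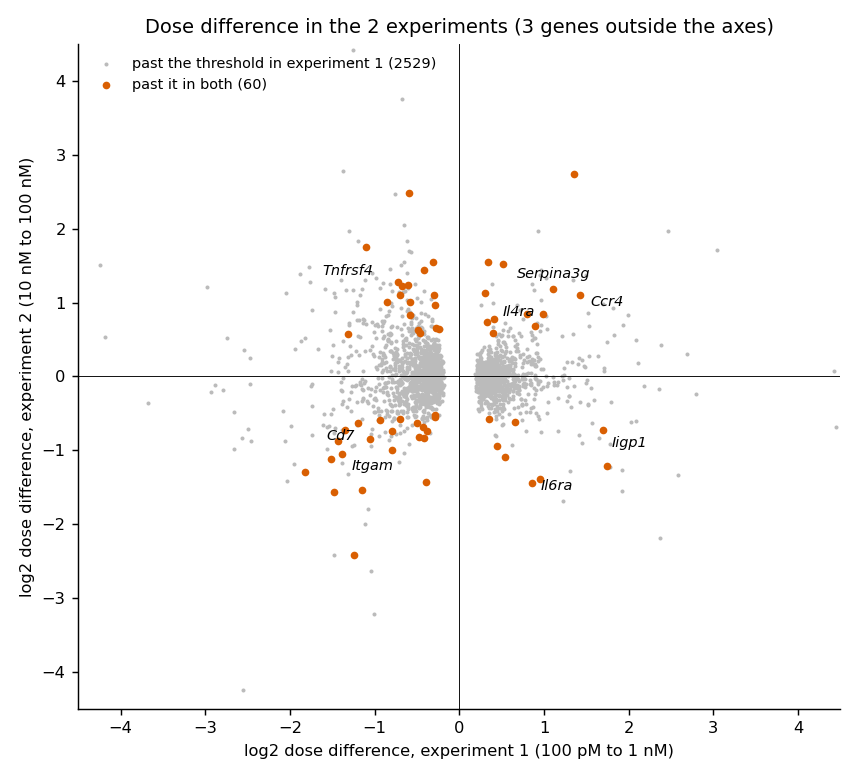
Dose difference from 100 pM to 1 nM in experiment 1 (x axis) and from 10 nM to 100 nM in experiment 2 (y axis), in log2 units, for the 2529 genes past the threshold in experiment 1 that were tested in both; the 60 that passed in both are in orange and 3 genes lie outside the axes. The points, orange ones included, lie on both sides of 0 on both axes.

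None of the 25 cholesterol, 31 DNA replication or 23 ribosome biogenesis calls was repeated at these doses. No gene of these lists passed there with edgeR, beside 0.922% of all genes. At that share, lists of 33, 54 and 50 tested genes would hold few calls or none, so the absence says little about them. The median dose difference of the cholesterol list was −0.48 at the low doses and 0.21 at the high ones. For DNA replication it was 0.24 and 0.12, and for ribosome biogenesis 0.30 and −0.023. These medians were not tested. In the interferon list 1 gene passed, Iigp1, and with the opposite sign. It had 45.0 and 40.5 CPM with mIL-21 and 53.2 and 53.4 CPM with 21h10 at 10 nM, and 52.2 and 48.6 CPM with mIL-21 and 38.4 and 37.3 CPM with 21h10 at 100 nM, with a dose difference of −0.73 (SE 0.149, edgeR adjusted p = 0.0254). Igtp had 262 and 259.7 CPM with mIL-21 and 254 and 234 CPM with 21h10 at 10 nM, and 281 and 262 CPM with mIL-21 and 289 and 269.5 CPM with 21h10 at 100 nM, which overlap, and did not pass (0.13, edgeR adjusted p = 0.889).

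Some genes had a dose difference of the same sign in both. Ccr4 had 7.14 and 6.44 CPM with mIL-21 and 6.63 and 7.77 CPM with 21h10 at 10 nM, and 4.57 and 6.16 CPM with mIL-21 and 12.4 and 11.9 CPM with 21h10 at 100 nM, with 21h10 at 100 nM again the highest, and a dose difference of 1.10 (edgeR adjusted p = 0.0320). Il4ra gained 0.77 and Serpina3g 1.18. Itgam had −1.04, but by another route than at the low doses, where it had risen with 21h10. It fell with 21h10 from 100.4 and 105 CPM at 10 nM to 42.6 and 53.0 CPM at 100 nM. Others turned. Il6ra had 41.5 and 40.3 CPM with mIL-21 and 37.3 and 37.6 CPM with 21h10 at 10 nM, and 38.7 and 38.9 CPM with mIL-21 and 13.4 and 12.7 CPM with 21h10 at 100 nM, so that the gap that had grown upward at the low doses opened downward, with a dose difference of −1.44 (edgeR adjusted p = 4.38e-05). Gzma and Tnfrsf4, whose gap had shrunk, gained 0.58 and 1.28 at the high doses. Cd160 and Socs3 did not pass there (−0.47 and −0.074).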

How the data were processed

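RNA was sequenced from poly(A)-selected libraries (KAPA mRNA HyperPrep, NovaSeq) of the 20 samples. The authors aligned reads to mm10 with TopHat 2.0.11 and deposited, for each library, the reads per RefSeq transcript as raw counts and as RPKM, which are reads per kilobase of transcript and per 1 M reads. The submitters' processing notes also list Bowtie2 2.2.6, SAMtools 0.1.8, bedtools 2.25.0 and edgeR. The strand setting of the counting is not given in the sources used here. Of 31682 transcripts, the longest was kept for each of 23992 symbols.

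Counts were analysed with edgeR 4.0.16 in R 4.3.3 (TMM scaling, genes kept by filterByExpr with a minimum count of 10 and a total of 15, group as the only term, quasi-likelihood test, Benjamini-Hochberg adjustment). All 10 libraries of an experiment entered its fit. The procedure was tested on simulated data first. Total counts on genes were 36824740 to 94070730 reads in the first experiment and 27072917 to 43300094 in the second, so that counting error is small for all but low genes. The alternatives were DESeq2 1.42.0, no filter, limma 3.58.1 on log2(RPKM + 1) for genes of at least 1 RPKM in 2 libraries, the 8 treated libraries alone, a replicate block, a log2 difference of at least 1, the transcript with most reads, the authors' mapped reads as library size, and leaving out each library.

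Of each class, the 5 genes with the largest dose difference were named among those past the threshold, with a mean of at least 2 RPKM in the highest treated group and the same sign for all 16 choices of 1 library per group. Up to 4 members of each gene list with the largest difference past the threshold were named too, and every gene of the heat-map list was examined. Unnamed gene models (Gm, Rik) were left out, and some genes that these rules cover are not reported here. Other list members given with single values, receptor and STAT genes among them, were picked for their role after their values had been seen. Members and lists were chosen with earlier results of these data known. Same-numbered duplicates did not deviate together (10 correlations between −0.0617 and 0.0293), so that the numbers were not taken as pairs. Overlaps come from the GENCODE annotation of GRCm38, near-identical copies from BLAST 2.17.0 against GENCODE transcripts, and promoters from the RefSeq table of GRCm38.p6.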

Additional observations from a re-analysis of the deposited data

Results flagged for a closer look

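The contrast itself asks whether the effect of 21h10 against mIL-21 differs between doses, so each call is a tested difference between groups. It held for 2570 genes from 100 pM to 1 nM. Of these the gap grew upward in 597, grew downward in 660, shrank from above in 592, shrank from below in 433, reversed to higher in 109 and reversed to lower in 127, and 52 met no such rule. From 10 nM to 100 nM it held for 127 genes.

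The genes named for size in each class were as follows, with dose differences in log2 units. Among those growing upward, Il17a stood at 2.12, Il1r1 at 2.09, Tmem158 at 1.83, Adora2b at 1.82 and Il23r at 1.65. Among those growing downward, Cd160 stood at −2.09, Cdh1 at −1.74, Zfp365 at −1.67, Mgat3 at −1.52 and Fam26f at −1.49. Among those shrinking from above, Moxd1 stood at −4.19, Kif1a at −2.98, Serpinb5 at −2.93, Lars2 at −2.67 and Slc1a1 at −1.99. Among those shrinking from below, Iigp1 stood at 1.69, Lta at 1.32, Klf2 at 1.29, Capn3 at 1.23 and Serpina3g at 1.11. Gbp10 at 2.18, Gbp6 at 1.51, Igtp at 1.49, Cd83 at 1.47 and Ccr4 at 1.42 reversed upward. Sult2b1 at −2.55, Fxyd7 at −1.95, Prph at −1.87, Il13 at −1.48 and Sept4 at −1.47 reversed downward. With 2 libraries a group, no single library could be tested for standing apart.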

How the results depend on the processing

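Among the leave-outs, the number of genes past the threshold moved most without single libraries at 100 pM. Leaving out 1 library at a time gave 1650 to 3268 genes, 733 to 1566 positive and 883 to 1702 negative. The classes ranged from 404 to 887 (grew higher), 440 to 830 (grew lower), 350 to 655 (shrank from above), 243 to 478 (shrank from below), 63 to 162 (reversed upward) and 74 to 163 (reversed downward). The cytokine difference ranged from 3505 to 6085 genes at 100 pM and from 4000 to 5711 at 1 nM. Without the first or second duplicate of mIL-21 at 100 pM the total fell to 1665 and 1650, with 1625 and 1618 of the same genes, the positive part to 733 and 767 and the negative part to 932 and 883. Without the first duplicate of 21h10 at 100 pM the positive part was 776. Without these 3 libraries in turn, the genes that shrank from above numbered 381, 350 and 392, those that shrank from below 243, 266 and 247, and those that reversed 63, 63 and 68 upward and 74, 74 and 75 downward.

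Limma called 685 negative genes, 353 growing lower, 254 shrinking from above and 71 reversed downward. Mapped-read library sizes gave 353 shrinking from above, 651 from below and 77 reversed downward. With a log2 difference of at least 1 there were 288 genes, 97 positive and 191 negative, in classes of 57, 60, 96, 25, 14 and 29 in the order above, and 557 and 622 genes for the cytokine difference at 100 pM and 1 nM. The replicate block gave 2352 genes, 2339 of them shared. Of the 2570 genes, DESeq2 kept 2173, limma 1674 and mapped-read library sizes 2105. For the step from 10 nM to 100 nM the count of 127 became 217 with DESeq2, 257 without the filter, 63 with limma, 265 with the 8 treated libraries alone and 52 with a log2 difference of at least 1. Leaving out 1 library gave 45 to 269 there: 269 and 267 without either unstimulated duplicate, 61 without the second of mIL-21 at 10 nM, 55 and 70 without those at 100 nM, 62 and 45 without those of 21h10 at 10 nM and 53 and 75 without those at 100 nM. The cause was not tested.

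Of 132 genes named by rule and past the threshold, 96 kept their call in every setting other than the log2 limit, and 36 lost it in 1 or more. Signs turned for Moxd1 (1.31) and Slc1a1 (0.97) with limma, which adds 1 RPKM to low levels. They also turned for genes not past the threshold. Il7r, at −0.04, became 0.0199 with limma and 0.014 with mapped reads, and ranged from −0.14 to 0.073 when 1 library was left out. Ptprc became 0.0003023 with DESeq2, 0.023 with limma and 0.018 with mapped reads, with −0.13 to 0.076 under the leave-outs. Rora became 0.0196 with limma, with −0.21 to 0.089 under the leave-outs, and Socs1 ranged from −0.098 to 0.28 under them. Low depth limits Il17a, Il1r1, Il23r, Tmem158, Adora2b, Ccl4, Moxd1, Slc1a1, Fam26f, Capn3, Derl3 and Egr2, whose mean was under 1 CPM in at least 1 treated group.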
